A study of Rattus norvegicus with 54 samples.

Results

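The Rab, Vps and Snx genes of the rat heart were taken as every symbol of the filtered expression table that was Rab, Vps or Snx followed by a number. The rule used symbols alone and found 97 genes, 43 of them Rab, 29 Vps and 25 Snx, among 9996 symbols in 10257 rows. The table held only rows above 1 fpkm (fragments per kilobase of transcript, scaled to the mapped fragments of the library) in at least 18 rats, all 97 genes passed that filter, and none of their values was 0. The symbol rule also took in Vps72, a subunit of a chromatin-remodelling complex.

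Hearts came from 54 individually housed male Wistar rats of wildtype genotype, aged about 7 to 8 weeks at the start, on a 12 h light and 12 h dark cycle, with 1 library per rat. Control rats (C) ate and drank ad libitum. Shift worker rats (W) spent the working hours of the light phase in a slowly rotating drum on weekdays for 5 weeks with food always present, and WRF rats did the same work with food withheld during it. All hearts were taken on a Saturday after the 5 weeks. No rat worked at weekends, and all groups could then eat freely. Each group held 18 rats, 3 at each of ZT1, ZT5, ZT9, ZT13, ZT17 and ZT21, where ZT is the number of hours after lights on.

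Rab proteins are small GTPases that mark membranes and recruit the motors, tethers and sorting proteins that act on them. Vps proteins, named from yeast mutants that missorted vacuolar proteins, build the complexes that sort cargo on endosomes: retromer returns cargo to the Golgi and the cell surface, ESCRT buds vesicles into the endosome lumen, and HOPS and CORVET tether membranes before fusion. Sorting nexins (Snx) carry a lipid-binding PX domain and shape or load endosomal tubules, and in heart muscle this traffic places channels, receptors and glucose transporters on the cell surface.

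The question put to these genes was whether their transcript levels differed with shift work, with food withheld during work, or with the time of day. A pair of WRF libraries did not look like the other hearts and touched many results below. The ventricular marker genes summed to 879 fpkm in rat WRF51 (ZT9) and to 4082 fpkm in WRF62 (ZT5), against 22601 to 65255 fpkm in the other 52 rats. Of 10 lung epithelial markers listed, 2 were in the table (Ager and Hopx). They summed to 2026 fpkm in WRF51, of which Ager held 1419 fpkm, with no more than 103 fpkm in the others. The macrophage markers of WRF51 summed to 18636 fpkm, while the T and B lymphocyte markers reached 883 fpkm in WRF62 and at most 45.96 fpkm in the 52 rats. The counts of genes that passed, and the values of each gene that passed between WRF and C, are therefore given with and without this pair. Atrial tissue also varied, with the atrial light chain Myl7 above 100 fpkm in 6 C, 7 W and 9 WRF rats. In whole tissue, fewer cells of a type and less RNA per cell cannot be told apart.

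The members lay from low to moderately high levels. The median level in C rats ran from 0.962 fpkm for Rab38, a Rab of lysosome-related organelles, to 91.1 fpkm for Rab1b, which acts between the endoplasmic reticulum and the Golgi, and the median gene stood at 8.52 fpkm. The 10 highest genes held 41.6% of the summed C medians. These were Rab1b, Snx3, Rab2a, Rab11b, Rab1a, Rab7a, Rab28, Vps28, Rab10 and Vps25, so that secretory (Rab1, Rab2), recycling (Rab10, Rab11b) and late endosomal (Rab7a) Rabs stood beside single retromer and ESCRT genes. There were 21 members above 20 fpkm and 30 under 5 fpkm. The coefficient of variation among C rats had a median of 21.2% over the members and 24.3% over all rows, from 8.06% for Vps53, a tether subunit, to 117% for Snx10.

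Among the 3 groups, 6 of the 97 genes differed by a Kruskal-Wallis test with Benjamini-Hochberg adjustment over the whole table, against 9.17% of all rows. Of these, 5 were higher in WRF than in C (8.13% of all rows) and 1 was lower (0.721%). All 5 higher genes coded for endosomal proteins. They were Vps29 of retromer, Vps25 of ESCRT-II, Vps28 of ESCRT-I, Vps45, which assists SNARE pairing, and Snx17, the adaptor of the retriever complex. The lower gene was Vps13d, a bridge for lipid transfer between membranes. No Rab passed. At an unadjusted p under 0.05 there were 24 members (24.7%), against 28.8% of rows, so that by both counts the share of members was no larger than that of the table. Without WRF51 and WRF62, 3 genes passed (Vps25, Vps29 and Vps45), against 6.42% of rows.

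**Figure D1:**
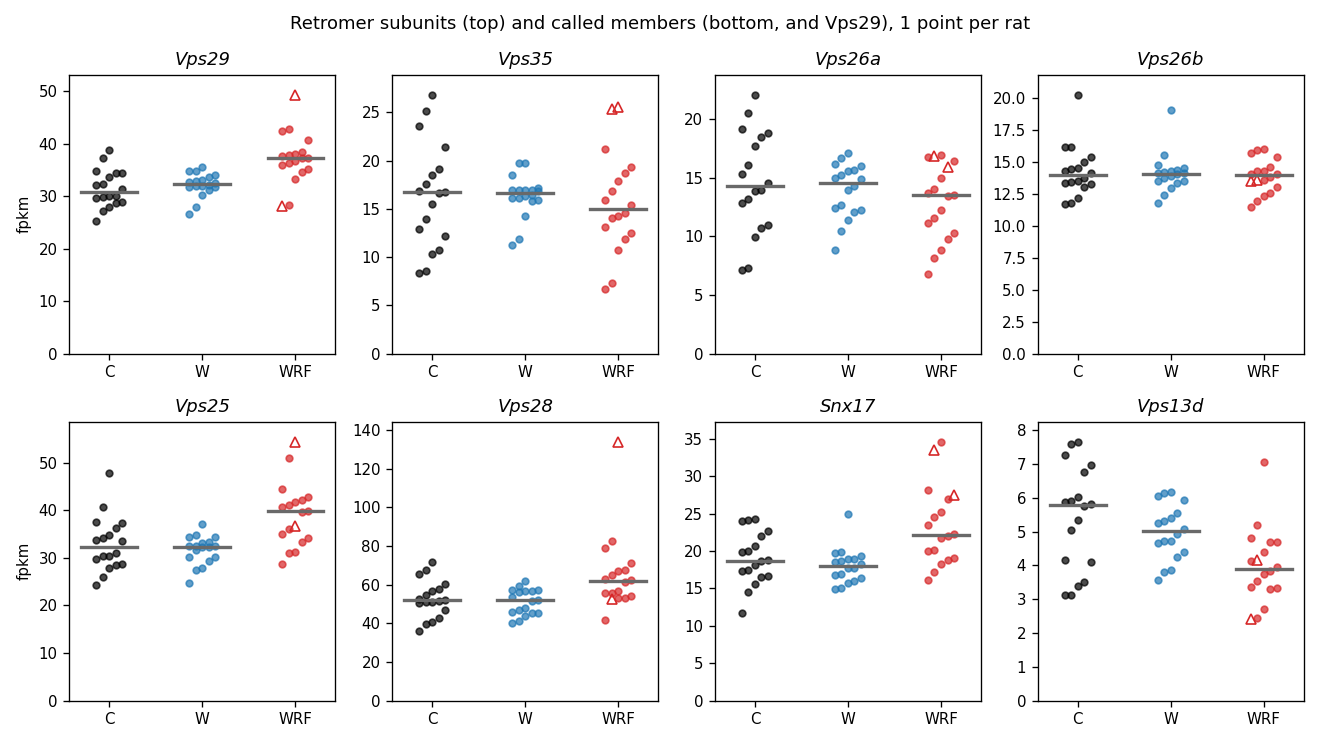
Level in fpkm (vertical axis) of 8 genes in each of the 54 rats by group C, W and WRF, with a bar at the group median and open triangles for WRF51 and WRF62. Vps29, Vps25, Vps28 and Snx17 have higher WRF medians and Vps13d a lower one, with overlapping groups in every panel, while Vps35, Vps26a and Vps26b have similar medians in C and WRF.

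Retromer is a trimer of one Vps26, Vps29 and Vps35. Vps29, which binds the end of Vps35 away from Vps26, lay at 25.3, 30.7 and 38.9 fpkm (lowest, median and highest) in C rats, at a median of 32.4 fpkm in W and at 28.2, 37.4 and 49.2 fpkm in WRF rats. The groups overlapped, with 16 of 18 WRF rats above the C median and 4 above every C rat. The difference was 0.23 ± 0.054 (limma, log2(fpkm + 1), ± SE), with an adjusted p of 0.00559 that ranged from 0.0017 to 0.148 over 17 alternatives. The Kruskal-Wallis adjusted p was 0.0115, and 0.0212 without WRF51 and WRF62. Vps29 was the member that kept its limma call most often, in 15 of the 17 alternatives. Its call was lost with values divided by median-of-ratios size factors (0.14, adjusted p = 0.148) and without WRF50 to WRF55 (0.16, limma adjusted p = 0.0873).

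The retromer partners of Vps29 showed no such difference. Vps35, the long backbone of the trimer, lay at 8.40, 16.7 and 26.7 fpkm in C and at 6.67, 14.98 and 25.6 fpkm in WRF rats, a limma difference of -0.07 ± 0.132 (adjusted p = 0.752). Vps26a, a cargo-binding arrestin-like subunit, had medians of 14.3 fpkm in C and 13.5 fpkm in WRF (-0.15 ± 0.116, limma adjusted p = 0.369), and its paralog Vps26b had 14.0 fpkm in both (-0.03 ± 0.053, adjusted p = 0.746). Since a ratio within a rat does not depend on the scale of its library, Vps29 was also set against each partner. Vps29 was 1.76 times Vps35 in the median C rat (range 1.28 to 4.02), 1.93 times in W and 2.39 times in WRF rats (range 1.10 to 5.64). The log2 ratio to Vps26b rose by 0.27 ± 0.077 (SE) from C to WRF (two-sided permutation test, 100000 resamples, p = 0.0012, adjusted over 6 ratios 0.0072), and that to Vps26a by 0.40 ± 0.151 (permutation adjusted p = 0.0377). The ratio to Vps35 was 0.31 ± 0.175 higher (permutation adjusted p = 0.124), and 0.41 ± 0.167 higher without the pair WRF51 and WRF62 (permutation adjusted p = 0.042). These ratios were chosen after the levels had been seen, and their ranges overlapped between groups. Their tests took rats as exchangeable and were repeated only without WRF51 and WRF62, not without single series of rats. A ratio removes the scale of a library but not its make-up. Over the other 52 rats, the Pearson r with the muscle gene Ckm was -0.81 (Vps35), -0.66 (Vps26a), -0.53 (Vps26b) and -0.03 (Vps29). The part of tissue make-up in the ratios was not tested.

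The sequences upstream of the retromer genes and of the other members that passed are shown because the subunits of one complex differed in level, so that their promoters can be read side by side. Each run is the 250 bases before the annotated start, 5′ to 3′ on the strand of the gene, from RefSeq on build GRCr8, with letters in capitals where a searched motif matched on either strand. The windows are chr12:39878733-39878982 (minus strand) for Vps29, chr19:37938739-37938988 (plus) for Vps35, chr20:30976890-30977139 (minus) for Vps26a, chr8:33696133-33696382 (minus) for Vps26b, chr10:86696137-86696386 (plus) for Vps25, chr2:186305178-186305427 (minus) for Vps45 and chr6:30902973-30903222 (minus) for Snx17.
Vps29: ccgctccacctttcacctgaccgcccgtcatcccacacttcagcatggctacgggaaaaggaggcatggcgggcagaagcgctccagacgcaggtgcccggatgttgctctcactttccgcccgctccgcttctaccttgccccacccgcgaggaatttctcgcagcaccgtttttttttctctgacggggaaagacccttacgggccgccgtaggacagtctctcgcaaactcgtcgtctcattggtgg
Vps35: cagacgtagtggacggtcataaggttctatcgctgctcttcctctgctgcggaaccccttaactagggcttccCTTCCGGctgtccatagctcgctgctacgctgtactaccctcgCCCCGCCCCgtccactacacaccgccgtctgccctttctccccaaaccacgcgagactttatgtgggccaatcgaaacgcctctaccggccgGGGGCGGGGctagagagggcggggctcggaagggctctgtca
Vps26a: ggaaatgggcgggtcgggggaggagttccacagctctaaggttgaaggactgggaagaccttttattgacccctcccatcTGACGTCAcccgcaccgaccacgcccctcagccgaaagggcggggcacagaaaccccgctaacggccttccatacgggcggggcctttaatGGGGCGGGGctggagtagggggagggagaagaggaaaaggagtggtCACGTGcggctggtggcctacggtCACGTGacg
Vps26b: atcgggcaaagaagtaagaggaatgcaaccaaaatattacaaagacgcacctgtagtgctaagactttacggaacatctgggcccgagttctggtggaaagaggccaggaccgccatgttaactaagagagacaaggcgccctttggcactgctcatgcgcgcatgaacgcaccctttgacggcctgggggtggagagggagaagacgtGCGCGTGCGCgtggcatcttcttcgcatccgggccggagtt
Vps25: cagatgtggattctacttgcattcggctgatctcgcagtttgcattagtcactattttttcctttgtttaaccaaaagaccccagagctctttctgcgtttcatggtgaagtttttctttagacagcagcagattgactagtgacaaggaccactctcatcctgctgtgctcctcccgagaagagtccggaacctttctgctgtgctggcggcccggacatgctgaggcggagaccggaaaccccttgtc
Vps45: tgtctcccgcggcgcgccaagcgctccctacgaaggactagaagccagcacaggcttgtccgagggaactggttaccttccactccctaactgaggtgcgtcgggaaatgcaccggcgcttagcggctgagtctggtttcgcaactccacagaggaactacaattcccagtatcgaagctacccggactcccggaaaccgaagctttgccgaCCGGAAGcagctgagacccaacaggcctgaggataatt
Snx17: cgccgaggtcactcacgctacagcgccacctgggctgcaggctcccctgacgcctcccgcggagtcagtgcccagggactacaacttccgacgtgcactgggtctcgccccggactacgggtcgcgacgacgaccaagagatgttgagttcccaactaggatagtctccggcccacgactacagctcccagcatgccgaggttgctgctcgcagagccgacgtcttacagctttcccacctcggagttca

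Of the 97 genes, 80 had a promoter in the RefSeq table. Vps28 and Vps13d were among the 17 with no entry and are named only. The runs of Vps29, Vps25 and Snx17 held none of the 9 motifs, while Vps35 held one ETS match (CCGGAAG) 177 to 171 bases before the start and 2 SP and KLF matches (GGGGCGGGG). Vps26a held the E-box CACGTG at 33 to 28 and at 9 to 4 bases before the start, a CRE (TGACGTCA) and an SP and KLF match. Vps26b held an NRF1 match and Vps45 an ETS match 38 to 32 bases before the start.

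Across members with a promoter, the ETS letters stood in 15% of runs, against 16.1% for all genes of the heart table and 7.74% of the 27457 promoters of the genome. The E-box, the letters read by the clock factors Clock and Bmal1 among others, stood in 12 of 80 member promoters (15%), in 8.48% of those of the heart table and in 5.79% of all. Those 12 included Rab5a, Rab21, Rab31, Vps11, Vps16, Vps33a, Snx2 and Snx8. SP and KLF letters stood in 23.8%, 19.2% and 9.74% of the same sets, and NRF1 letters in 15%, 9.72% and 4.17%. The remaining motifs stood in fewer member promoters than the motifs above. YY1 (AAGATGGCG), CRE and the CCAAT box (CCAATCA) stood in 2.5% each (2 of 80), against 1.41%, 2.93% and 8.91% for the heart table. The D-box (TTATGTAA) and the heat shock element stood in 0 of 80, against 0.374% and 0.387% for the heart table. A match is only a run of letters.

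Snx17 recycles receptors away from lysosomes. It lay at 11.7, 18.7 and 24.3 fpkm in C, at a median of 18.01 fpkm in W and at 16.1, 22.1 and 34.6 fpkm in WRF rats. The ranges overlapped, with 15 of 18 WRF rats above the C median and 7 above all C rats. Its limma difference was 0.27 ± 0.084 (adjusted p = 0.0288, from 0.000478 to 0.628 over its alternatives), and 0.22 with an adjusted p of 0.069 without WRF51 and WRF62. The nexins listed with retromer (Snx1, Snx2, Snx3, Snx5, Snx6, Snx12 and Snx27) did not pass between WRF and C with the values as deposited. Snx3, a cargo adaptor of retromer, had medians of 81.3 fpkm in C and 89.5 fpkm in WRF (Kruskal-Wallis adjusted p = 0.115), and Snx5, one of the tubule-forming nexins, had 19.8 and 23.2 fpkm (adjusted p = 0.106).

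ESCRT genes named Vps numbered 8, and both that passed were among the most abundant members. Vps25, whose protein links ESCRT-I to the membrane-cutting ESCRT-III, lay at 24.2, 32.3 and 47.8 fpkm in C, at a median of 32.3 fpkm in W and at 28.8, 39.8 and 54.3 fpkm in WRF rats (limma 0.24 ± 0.071, adjusted p = 0.0198, range 0.000476 to 0.312). Vps28 lay at 36.2, 51.9 and 71.8 fpkm in C, at a median of 51.9 fpkm in W and at 41.5, 62.03 and 134 fpkm in WRF rats (0.28 ± 0.092, limma adjusted p = 0.0378, range 0.00133 to 0.393). Both groups of values overlapped, with 15 of 18 WRF rats above the C median for Vps25 and 17 for Vps28. Without WRF51 and WRF62 the limma adjusted p was 0.0342 for Vps25 and 0.0512 for Vps28.

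Their partners in the same complexes had smaller differences. Vps36, which binds ubiquitin in ESCRT-II with Vps25, had medians of 11.7 fpkm in C and 12.2 fpkm in WRF (limma 0.21, adjusted p = 0.0706), and the ratio of Vps25 to Vps36 did not separate the groups (0.02 ± 0.127, permutation adjusted p = 0.855). Vps37a, a stalk subunit of ESCRT-I with Vps28, had 9.67 and 9.44 fpkm (-0.09, limma adjusted p = 0.34). The log2 ratio of Vps28 to Vps37a was 0.38 ± 0.158 higher in WRF (permutation adjusted p = 0.0422), and 0.32 ± 0.152 higher without WRF51 and WRF62 (permutation adjusted p = 0.072). The ATPases Vps4a and Vps4b, which take ESCRT-III apart, had WRF medians of 22.5 and 12.3 fpkm against 20.4 and 12.5 fpkm in C and did not pass.

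Vps45, a Sec1-type protein that assists syntaxins of the endosome, lay at 6.07, 7.43 and 8.58 fpkm in C, at a median of 7.56 fpkm in W and at 7.30, 8.58 and 10.2 fpkm in WRF rats. The groups overlapped, with 17 of 18 WRF rats above the C median and 9 above every C rat, and the difference was small (limma 0.16 ± 0.047, adjusted p = 0.0224, range 0.0115 to 0.423). In the absence of WRF51 and WRF62 the limma difference was 0.16 ± 0.0466 (adjusted p = 0.0194). No tether passed between WRF and C with the values as deposited. The 7 HOPS and CORVET genes (Vps11, Vps16, Vps18, Vps33a, Vps33b, Vps39 and Vps41) had a median difference of 0.09 (-0.0015 without that pair, with 3 of 7 positive), and the 4 GARP and EARP genes (Vps50, Vps52, Vps53 and Vps54), which tether vesicles at the Golgi and at recycling endosomes, had 0.08 (-0.01, with 2 of 4 positive).

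Vps13d was the one member that fell. It lay at 3.12, 5.79 and 7.64 fpkm in C, at a median of 5.004 fpkm in W and at 2.41, 3.90 and 7.06 fpkm in WRF rats, with 17 of 18 WRF rats under the C median and 3 under every C rat. The limma difference was -0.35 ± 0.0998 (adjusted p = 0.017, range 0.000166 to 0.504), and -0.32 with an adjusted p of 0.031 without WRF51 and WRF62. The related bridges Vps13a and Vps13b had medians of 2.51 and 1.84 fpkm in C and of 1.58 and 1.31 fpkm in WRF rats and did not pass (limma adjusted p = 0.456 and 0.388). The ratio of Vps13d to Vps13a did not differ beyond its spread (-0.21 ± 0.166, permutation adjusted p = 0.254), so the data do not set Vps13d apart from Vps13a.

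By limma, 7 members were higher (11.3% of all rows) and 1 lower (1.68%) in WRF than in C. The 7 added Rab13 and Snx8 to the 5 named above. Rab13, a Rab of recycling cargo and cell junctions, lay at 3.22, 7.44 and 10.9 fpkm in C and at 6.59, 9.62 and 32.2 fpkm in WRF rats (0.44 ± 0.127, limma adjusted p = 0.0201, range 0.00511 to 0.128). Snx8, an early endosome nexin, lay at 2.62, 3.90 and 5.27 fpkm in C and at 3.10, 5.11 and 13.2 fpkm in WRF rats (0.35 ± 0.107, limma adjusted p = 0.0276, range 0.000203 to 0.634). With WRF51 and WRF62 left out the limma adjusted p was 0.0353 for Rab13 (0.34) and 0.074 for Snx8 (0.21). Their groups overlapped, and neither passed the Kruskal-Wallis test (adjusted p = 0.0551 and 0.125). Without WRF51 and WRF62, 4 members were higher (9.32% of rows) and 1 lower (1.59%).

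The whole list leaned upward in WRF about as the table did. The difference was positive for 70 of 97 members (64.1% of all rows), with a median of 0.09 over members and 0.08 over rows, and for 58 of 97 with a median of 0.03 over both without WRF51 and WRF62. Summed over the 97 genes the level was 1336, 1484 and 1982 fpkm in C, 1321, 1497 and 1811 fpkm in W and 1429, 1639 and 2590 fpkm in WRF rats. As a share of all fpkm of the table the genes took 0.324% in C, 0.306% in W and 0.291% in WRF. Dividing by median-of-ratios size factors, which moved the median of all rows by -0.08, left a member median of 0.005. The limma split went from 7 higher and 1 lower to 2 higher (5.88% of rows) and 3 lower (5.03% of rows). The 2 were Rab13 and Snx8, and the 3 were Vps13d, Vps39 and Snx27. Most marker lists of cell types leaned upward, and without WRF51 and WRF62 the endothelial list alone had a negative median. Without WRF51 and WRF62 the difference was positive for 9 of 9 fibroblast markers (median 0.34), 9 of 9 macrophage markers (0.29) and 5 of 5 atrial markers (1.41). Ventricular markers had 7 of 10 positive (0.14), smooth muscle markers 6 of 8 (0.14) and endothelial markers 2 of 8 (-0.11). The lymphocyte list had 8 of 8 (0.25), hepatocyte 6 of 6 (0.58) and skeletal muscle 3 of 3 (0.63). Adipocyte markers had 2 of 2 (0.90), lung 2 of 2 (0.08) and erythrocyte 4 of 5 (0.33). The ventricular list depended on that pair, with 0 of 10 positive (-0.37) in all rats. With all rats, the fibroblast markers summed to 537 to 2459 fpkm in C, 566 to 1244 fpkm in W and 728 to 1688 fpkm in WRF rats. The part of these cell types in the differences of the members was not tested. The direction of Vps13d did not depend on the median-of-ratios scaling (-0.42, limma adjusted p = 0.0118).

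**Figure D2:**
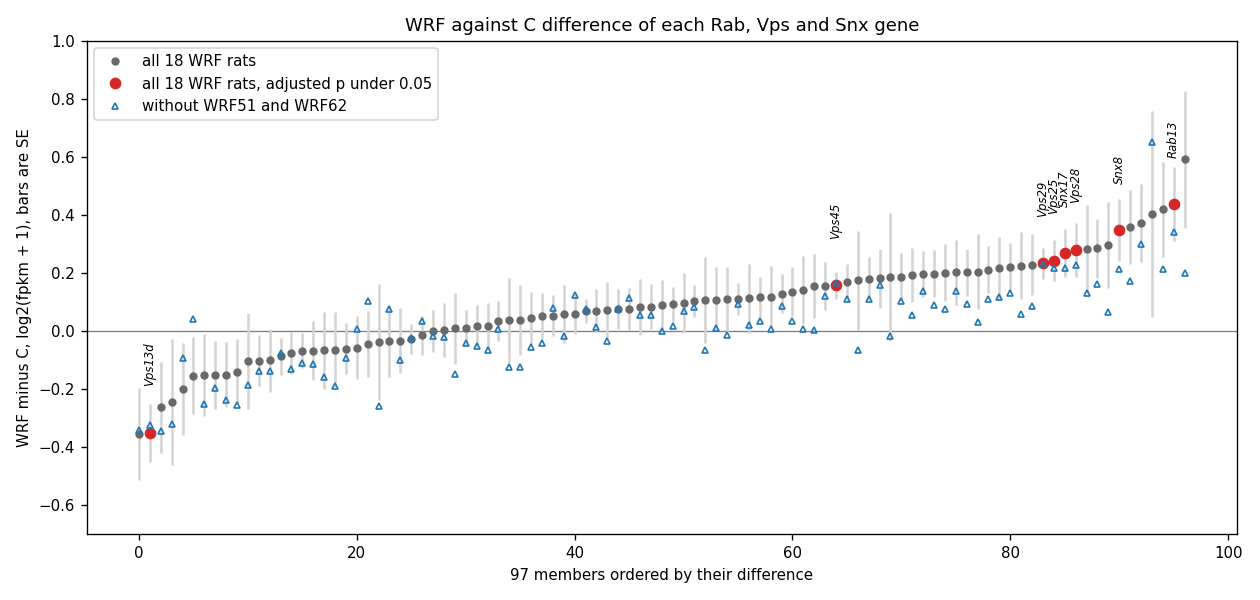
Difference between WRF and C in log2(fpkm + 1) (vertical axis, limma, ± SE) for the 97 genes in order of size (horizontal axis), in red where the adjusted p was under 0.05, with blue triangles for the value without WRF51 and WRF62. 70 of the 97 points and 58 of the 97 triangles lie above 0.

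Between WRF and C no Rab GTPase passed by the Kruskal-Wallis test, and Rab13 alone passed by limma. Early endosome Rabs (Rab5a, Rab5b, Rab5c, Rab20, Rab21, Rab22a and Rab31) had a median difference of 0.02, and of 0.05 without WRF51 and WRF62. Rab5a, the main organiser of early endosomes, had medians of 15.6 fpkm in C and 11.8 fpkm in WRF with ranges of 3.94 to 25.1 and 2.28 to 21.5 fpkm (limma -0.25 ± 0.217, adjusted p = 0.435). Rab7a, which drives late endosomes toward lysosomes, had medians of 64.4 and 73.4 fpkm and missed the threshold by little (Kruskal-Wallis adjusted p = 0.0513, limma 0.17, adjusted p = 0.0615). Recycling Rabs such as Rab11a (31.0 and 31.6 fpkm) and Rab4a (12.8 and 13.8 fpkm) and Rab10, which moves glucose transporters in fat cells, (34.01 and 32.5 fpkm) had close medians. Rab3b, a Rab of regulated secretion, had a wide spread, from 11.1 to 121 fpkm in C and from 5.16 to 109 fpkm in WRF, with medians of 30.5 and 53.5 fpkm (0.40 ± 0.355, limma adjusted p = 0.433).

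Between W, which worked with food always present, and C, none of the 97 genes passed. By the Kruskal-Wallis test followed by W against C, 0 members passed (0.429% of all rows), and by limma 0 members passed and 0 had an unadjusted p under 0.05, against 0.916% of rows. The member median was -0.01, and the highest difference was 0.18 for Rab30. Without the rats C33 to C38, 10 members passed the rank test between W and C (Rab23, Rab24, Snx13, Snx27, Snx29, Vps13a, Vps13b, Vps13d, Vps26a and Vps53), 10.3% of members against 10.54% of rows, and without WRF1 to WRF6, 1 did (Vps53, against 1.28% of rows). In WRF against W, limma called 12 members higher (12.4% of rows) and Vps13d lower (1.83%). The 12 were Vps18, Vps25, Vps28, Vps29, Vps37b, Vps45, Vps53, Vps72, Rab34, Snx8, Snx15 and Snx17. Left-out series moved this count from 0 (without W17 to W22, or without WRF50 to WRF55, with 0% of rows each) to 40 (without WRF1 to WRF6, 41.2% of members against 39.9% of rows). It was 8 without WRF51 (8.99% of rows). Leaving out both WRF51 and WRF62, 11 members were higher (10.1% of rows) and 0 lower (2.09%), so that Vps13d no longer passed. Median-of-ratios scaling gave 3 higher (4.89% of rows) and 2 lower (4.59%). WRF against C and W against C share the C rats, as WRF against C and WRF against W share the WRF rats.

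Rats carry numbers that run in 3 series of 6 in each group, 1 rat per time in a series, and the series weighed heavily. Without WRF1 to WRF6 the Kruskal-Wallis count went from 6 members to 30 (30.9%, against 31.2% of rows), and without C33 to C38 to 18 (18.6%, against 26.9%). Without WRF41 to WRF46 and WRF62, or without WRF50 to WRF55, it was 0, as it was over the whole table. Of the single genes, Vps29 had series medians of 30.6, 32.3 and 30.1 fpkm in C and of 37.4, 33.97 and 40.3 fpkm in WRF. All 3 WRF medians were above all 3 C medians for 6 members (Rab7a, Rab13, Rab30, Vps4a, Vps29 and Vps45), against 9.49% of rows, and below them for 0 members (1.28% of rows). For Vps13d the series medians were 5.82, 6.64 and 3.45 fpkm in C and 4.60, 3.79 and 3.44 fpkm in WRF, so that C33 to C38 lay as low as the WRF rats. Vps35 had 16.8, 22.5 and 10.6 fpkm in the C series and 17.4, 13.2 and 14.3 fpkm in those of WRF. With only the rats at or under 100 fpkm of Myl7 (12 C, 11 W and 9 WRF), no member passed the rank test, nor did any other row. Between WRF and C, Vps29 alone of the members passed limma (0.35, adjusted p = 0.0259), against 0.273% of rows.

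Of 159 partner genes of the same traffic, listed by role, 122 were measured. In WRF against C 12 (9.84%, against 8.13% of rows) were higher and 0 lower by the Kruskal-Wallis rule, with a median difference of 0.08. The WASH, COMMD and EHD sorting factors gave 5 of 21: Washc3 (medians 23.4 fpkm in C and 29.3 fpkm in WRF, Kruskal-Wallis adjusted p = 0.011), Commd9 (23.5 and 27.5 fpkm, 0.0111), Commd6 (10.4 and 13.5 fpkm, 0.0114), Commd3 and Commd7. Other ESCRT subunits gave 4 of 21, all of them ESCRT-III proteins: Chmp6 (13.5 and 16.7 fpkm, Kruskal-Wallis adjusted p = 0.0169), Chmp3 (67.1 and 76.2 fpkm, 0.0208), Chmp1a and Chmp2a. The SNAREs gave Vamp8 (57.5 and 77.3 fpkm) and Stx8 of 20, and the Rab effectors gave Rilpl2 of 34. None of the 7 prenylation factors or 19 phosphoinositide enzymes passed. When WRF51 and WRF62 were left out, 9 partners were higher (7.38%, against 5.72% of rows) and the median difference was 0.

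WRF51 and WRF62 held the extremes of many members. WRF51 was the highest of the 54 rats for 47 of the 97 genes (29.4% of all rows), and 40 genes were at least 2-fold above the median of the other 16 WRF rats (35.5% of all rows). Its largest excesses were Rab38 at 17.5 fpkm (12.998-fold), Snx20 at 15.7 fpkm (11.6-fold), Snx10 at 10.6 fpkm (8.24-fold) and Rab32 at 7.58 fpkm (5.85-fold). Rab38 serves lysosome-related organelles, among them the lamellar bodies of lung, and Rab27a, a secretory granule Rab of blood cells, was at 32.2 fpkm (5.22-fold). WRF62 was the highest of the 54 rats for 21 of the 97 genes, against 27.6% of all rows. In WRF62, 28 members were 2-fold up (33.6% of rows) and 7 were 2-fold down (13.7%). There Snx20, a nexin of leukocytes, reached 39.7 fpkm (29.5-fold), Rab8b 18.3 fpkm (8.08-fold) and Rab8a 67.0 fpkm (5.36-fold). Snx22 was at 0.0873 fpkm in WRF51 and at 0.192 fpkm in WRF62, under every C rat, and Rab3b was at its lowest in WRF51 (5.16 fpkm). These members moved with the lung, macrophage and lymphocyte markers given above, and the part of those cells was not tested.

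**Figure D3:**
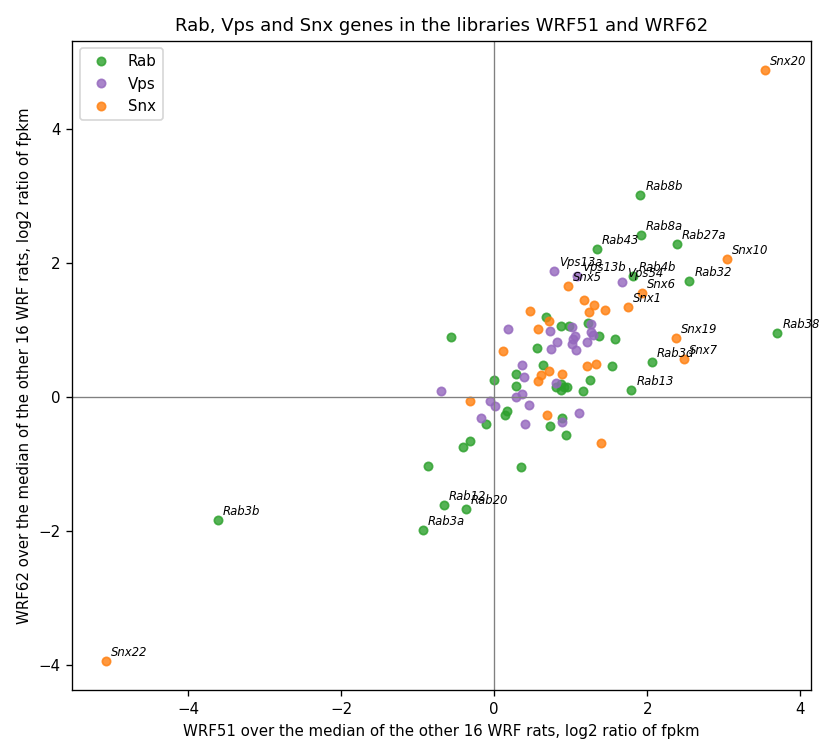
Each of the 97 genes by its log2 ratio to the median of the other 16 WRF rats, in WRF51 (horizontal axis) and in WRF62 (vertical axis). Snx20 lies high in both, Rab38 in WRF51 most of all, and Snx22 lies low in both.

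Time of day was tested by a harmonic regression with a 24 h period in each group. In C rats, 0 members were rhythmic after adjustment (0.848% of rows) and 2 had an unadjusted p under 0.05 (5.91% of rows). Rab20, a Rab of endosomes and phagosomes that hypoxia raises, came nearest, with means of 19.3, 23.6, 23.8, 15.8, 15.6 and 14.7 fpkm from ZT1 to ZT21 (n = 3 each). All 3 rats at ZT5 were above all 9 at ZT13, ZT17 and ZT21. Its fitted peak was at ZT6.25 with an amplitude of 4.999 fpkm (harmonic regression across all rows, adjusted p = 0.0506). The adjusted p was 0.0267 on the log2 scale, 0.0421 among rows with a mean of at least 5 fpkm, 0.28 after median-of-ratios scaling, 0.223 by a JTK test and 0.145 to 0.987 without one of the C series. Rab20 did not pass in W or in WRF (unadjusted p = 0.938 and 0.544), and its rhythm did not differ between WRF and C after adjustment (limma, unadjusted p = 0.0471, adjusted p = 0.618). By that test of WRF against C, 0 members differed in rhythm after adjustment, and 5 had an unadjusted p under 0.05 (5.76% of rows), or 1, Vps45, without WRF51 and WRF62 (2.25%).

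In W rats 0 members were rhythmic, as was 0% of rows, and Snx18 alone had an unadjusted p under 0.05 (0.041, 3.05% of rows). In WRF rats 0 members were rhythmic (0.039% of rows) and 6 had an unadjusted p under 0.05 (6.35% of rows): Rab3b, Vps35, Vps26a, Snx33, Rab18 and Rab23. Rab3b had means of 91.2 fpkm at ZT1 and 23.6 fpkm at ZT9 (n = 3 each), with its fitted peak at ZT22.0, and Vps35 and Vps26a peaked at ZT8.36 and ZT9.67. Without WRF51 and WRF62, 0 members were rhythmic (0.00975% of rows) and 6 had an unadjusted p under 0.05 (8.08% of rows), and of those named only Rab3b was among them (p = 0.0294). Fitted peaks in WRF rats lay between ZT6 and ZT12 for 74 of the 97 genes. These times rest on the sample titles: with the other time labels, which differ for 12 of the 18 WRF rats, 17 genes peaked between ZT6 and ZT12, the mean peak was ZT4.61, and Rab3b, Vps35 and Vps26a peaked at ZT19.4, ZT4.11 and ZT5.39. By the titles, the peaks lay within 3 h of their mean, ZT9.00, for 76.3% of members and 62.2% of rows. WRF51 is one of the 3 rats at ZT9 and WRF62 one of the 3 at ZT5. Without them the mean peak was ZT12.2 over members and ZT12.7 over rows, with 55.7% of members and 46.8% of rows within 3 h of the member mean. The median relative amplitude went from 0.182 to 0.101 over members and from 0.196 to 0.112 over rows.

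**Figure D4:**
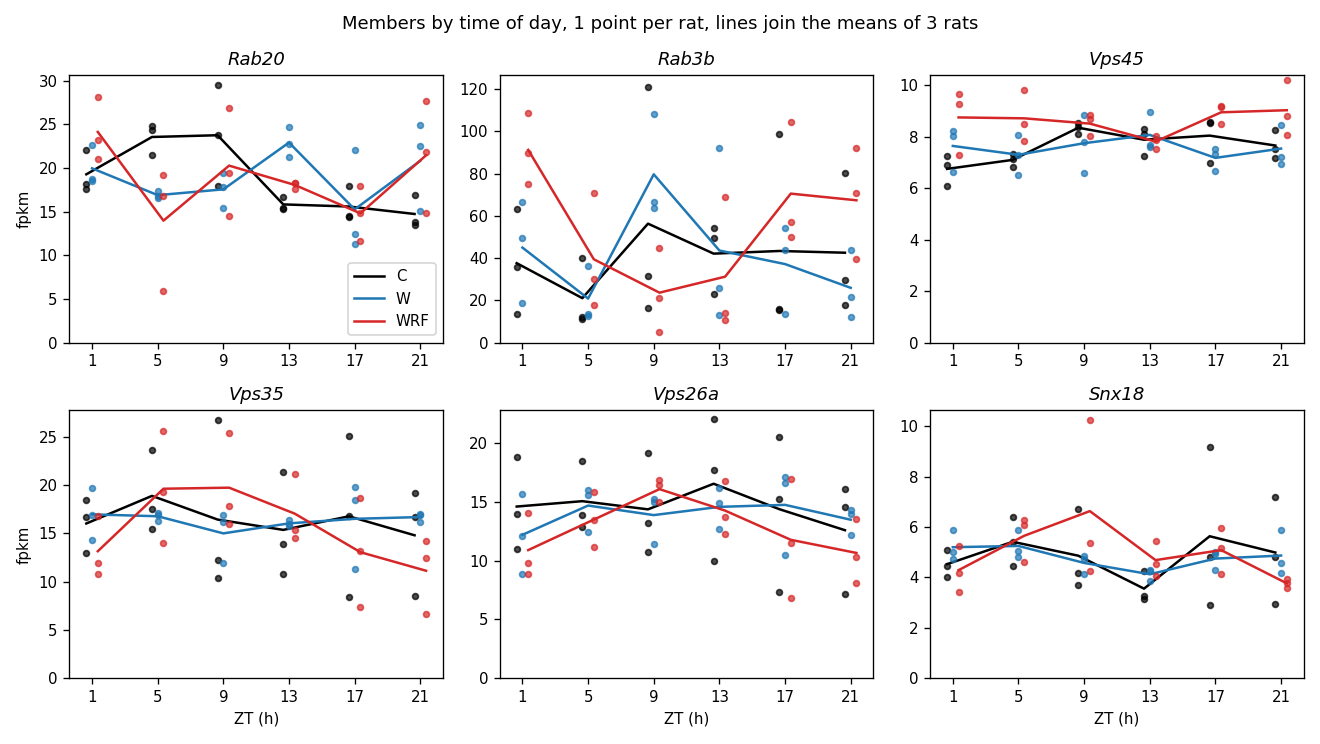
Level in fpkm (vertical axis) against ZT in hours (horizontal axis) of Rab20, Rab3b, Vps45, Vps35, Vps26a and Snx18 in C, W and WRF rats, with a point per rat and a line through the means of 3 rats. Rab20 in C stands near 24 fpkm at ZT5 and ZT9 and near 15 fpkm in the dark phase, and the points of Rab3b spread widely at most times.

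At single times, limma called 0 members between WRF and C at any of the 6 times, with 3 rats against 3. At ZT5, 9 members had an unadjusted p under 0.05 (17.5% of rows), among them Rab20 (-0.86), Snx20 (1.61) and Rab8a (0.86), and without WRF51 and WRF62 3 had (4.91% of rows). At ZT9 there were 6 (8.28%), with Vps36 (0.77) and Rab38 (0.96), and 2 without that pair (1.77%). The median member difference at ZT9 was 0.24 with WRF51 and -0.03 without it and WRF62. The other times gave 4 members at ZT1 (7.77%), 2 at ZT13 (4.58%), 2 at ZT17 (2.69%) and 1 at ZT21 (2.23%), and without WRF51 and WRF62, 10 (14.3%), 16 (13.3%), 3 (6.44%) and 3 (5.68%). Vps29 was higher at ZT17 (0.37) and at ZT21 (0.29), by unadjusted p only.

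Within groups, members varied together more than rows at large. Over 52 rats (without WRF51 and WRF62, group means removed), the 4656 pairs of members had a median Pearson r of 0.33, and 33.7% were above 0.5, against 0.16 and 18.3% for all pairs of rows. All values share the library of each rat, so these are descriptions. Rab10 and Rab14, which both serve recycling and surface delivery, were the closest pair (r = 0.97), and Vps13d ran with Vps13a (0.91) and with Snx13 (0.92). Opposed pairs included Rab1b with Rab6a (-0.81), both Rabs of the Golgi, and Rab1b with Vps35 (-0.80).

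Subunits of one complex did not always run together. Vps35 and Vps26a had an r of 0.88, while Vps29 had 0.08 with Vps35, 0.10 with Vps26a and 0.06 with Vps26b, and was most like Vps45 (0.57). Vps28 and Vps37a had an r of -0.49 and Vps25 and Vps36 of -0.34, while Vps25 and Vps28 had 0.64. Paralogs differed in the same way: Rab5a and Rab5b had 0.61, Rab11a and Rab11b 0.06, and Rab1a and Rab1b -0.64. Many members ran against the muscle gene Ckm, a creatine kinase, with a median r of -0.41 over members and 43.3% of them under -0.5 (28.9% of rows). Rab1b stood at the other end with 0.87, and Rab6a and Vps35 were lowest at -0.81 each. What Ckm stands for here, muscle content or library quality, was not tested.

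**Figure D5:**
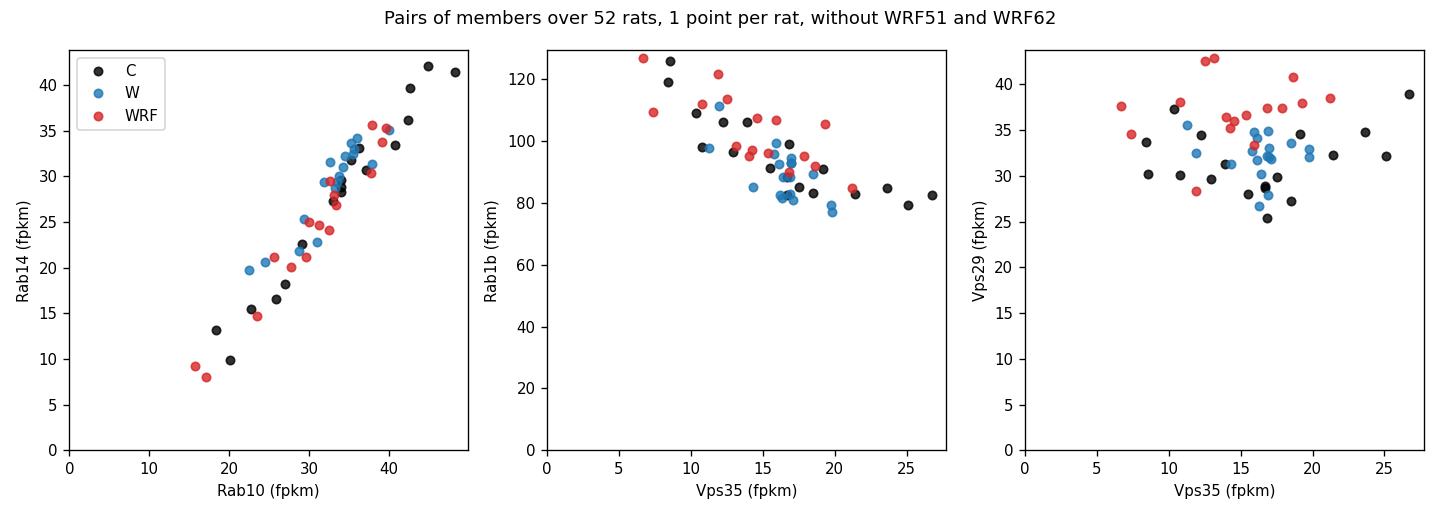
Levels in fpkm of Rab10 against Rab14, Vps35 against Rab1b and Vps35 against Vps29, with a point for each of 52 rats coloured by group. The first pair rises along a line, the second falls, and the third has no slope that can be seen.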

How the data were processed

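Polyadenylated RNA purified from total RNA of whole hearts was sequenced as strand-specific libraries, 1 per rat. The authors aligned reads with TopHat2 and computed gene fpkm with Cufflinks on the rat build rn6 (tool versions not given in the sources used here) and deposited fpkm tables. Only the filtered fpkm table was used here. That table holds no read counts, the depths that the study gives elsewhere were not used here, and counting error was not computed. Copies of a symbol were counted once, at the row with the bare symbol.

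Groups and times came from the sample titles. Another label gave a different time for 12 WRF rats, which was tried as an alternative. Groups were compared over all 10257 rows by a Kruskal-Wallis test with Benjamini-Hochberg adjustment, followed by Mann-Whitney tests between pairs of groups, and by limma 3.58.1 in R 4.3.3 on log2(fpkm + 1) with group as the term. This scale understates changes of low genes. Rhythms were fitted by harmonic regression with a 24 h period and adjusted the same way. Single-time differences came from a limma fit with a term for each group and time. Ratios of 2 genes were compared by permutation over rats, with all rats and without WRF51 and WRF62 only. Scripts were tested on simulated data. Alternatives were leaving out WRF51 and WRF62, W21 or each series of 6 rats, median-of-ratios scaling, rows with a mean of at least 5 fpkm, a pseudocount of 0.1 fpkm, rats with at most 100 fpkm of Myl7, a log2 scale and a JTK test for rhythms, and a replicate block.

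The members, lists and ratios were chosen with earlier results of these data known. Genes were named by a rule: the 10 highest in C, the smallest p-values among groups and of rhythms, the largest limma differences, the retromer subunits, close paralogs and, of each list, the members with the smallest p. The ratios, the extremes of WRF51 and WRF62 and the genes of single times and pairs were named after their values were seen. Promoter sequences came from RefSeq on GRCr8, not the build of the files, and were matched by symbol. Motifs were searched on both strands. Rats are separate animals.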

Additional observations from a re-analysis of the deposited data

How the results depend on the processing

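Percentages and row counts in brackets here are those of all rows. Without WRF51 and WRF62, 3 members passed among the groups (6.42%), 3 higher (5.72%) and 0 lower (0.517%) in WRF. Limma then called 5 between WRF and C (10.9%). Leaving out either rat alone left 0 lower by the rank test (0.595% without WRF51, 0.458% without WRF62). Without WRF51 alone, limma called 5 between WRF and C (9.07%) and 8 between WRF and W (8.99%). In WRF, 3 members then had an unadjusted rhythm p under 0.05 (501 rows). Median-of-ratios scaling gave 2 members among the groups (4.31%), 0 higher (2.17%) and 2 lower (2.06%). By limma it gave 5 in WRF against C (10.9%) and 5 in WRF against W (9.49%). In C, 5 members then had an unadjusted rhythm p under 0.05 (878 rows). Of 1119 limma calls over all rows in WRF against C, 603 were then higher in WRF. Among rows with a mean of at least 5 fpkm, 8 members were higher (965 rows) and 0 lower (72 rows) in WRF than in C. There 1 member, Rab20, was rhythmic in C (71 rows), and 0 had an unadjusted rhythm p under 0.05 in W (230 rows). With at most 100 fpkm of Myl7 the counts were 0 among the groups (0 higher, 0 lower), as over all rows. Limma then gave 1 in WRF against C (0.273%) and 0 in WRF against W (0%). Leaving out W21 left 0 lower (0.468%). On the log2 scale 1 member was rhythmic in C (105 rows) and 11 had an unadjusted p under 0.05 in WRF (861 rows). By JTK these unadjusted counts were 1 in C (367 rows), 0 in W (129 rows) and 10 in WRF (724 rows). The other time labels left 0 in WRF (184 rows).

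Leaving out each series of 6 rats in turn gave 0 to 30 members among the groups, 0 to 28 higher and 0 to 8 lower in WRF, 0 to 10 between W and C, 1 to 36 by limma in WRF against C and 0 to 40 in WRF against W. It gave 1 to 4 unadjusted rhythms in C, 1 to 3 in W and 0 to 16 in WRF, and 0 to 1 members at single times between WRF and C. The cause of these shifts was not tested. None of the 8 limma calls between WRF and C changed direction under the alternatives that were run.

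The same rat numbers occur in C and W (12 pairs) and in W and WRF (3 pairs). Deviations of same-numbered rats had correlations of -0.0776 to 0.57 in the first and -0.133 to 0.351 in the second, with 6 and 1 over 0.1, and 1 rat of each set was best matched by its own number, so the numbers were not taken as pairs. With the number as a replicate block limma called 0 members (0% of rows) in either contrast, as it did in the same rats without the block. The block took the members at an unadjusted p under 0.05 in W against C from 13 (13.4%, against 8.65% of rows) to 16 (16.5%, against 16.6%). The values carry no read counts, so the counting error of low members such as Rab38 was not computed.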
